A study of Drosophila melanogaster with 8 samples.

Results

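The odorant-binding proteins of Drosophila melanogaster are a family of small secreted proteins, named Obp with the chromosome band of each gene. They were taken here as every gene model of the deposited tables whose name begins with Obp and a digit, which gave 49 of 15296 gene models. All 49 names were matched to a FlyBase gene ID in a gene name table. A family gene named otherwise, lush, falls outside that rule. The genes lie mostly on chromosome 2, with 27 on arm 2R and 2 on 2L, while 12 lie on 3R, 2 on 3L and 6 on X. Many stand in tandem groups. Obp56a to Obp56f fill 2R 15585227 to 15601481, Obp19a to Obp19d X 20286771 to 20292009, and Obp83cd, Obp83ef and Obp83g 3R 1933855 to 1938019. Positions are in build dm3, as the deposited tables print them.

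Odorant-binding proteins are best known from insect antennae. There, support cells at the base of a sensory hair secrete them into the fluid around the neuron endings, where they bind small hydrophobic odours and pheromones that the membrane receptors of the neurons detect. Other members are made in taste hairs, in fat body, glia or reproductive glands. What many of them bind is unknown.

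RNA came from whole females grown at 18 °C, collected as third-instar larvae or as adults 2 to 3 days old. A4/A4 animals are homozygous for the chromosome 2 inversion In(2)A4, and their larvae were sorted from a stock that carries the inversion over a GFP-marked CyO balancer by their lack of fluorescence. A12/A12 animals are not described beyond that name. The design sets wild type against animals with position-effect variegation (uneven silencing of a gene that a rearrangement brings close to heterochromatin), and A12 is read here as its wild type. Each genotype has a larval and an adult group, which makes 4 groups of 2 libraries. The labels do not say that replicates came from separate cultures, so all p-values measure the spread between these libraries. Levels are FPKM, fragments per kilobase of gene model scaled to sequencing depth, and can be compared between genes. A pair of values is replicate 1 and then replicate 2 of a group, and a mean has its SD (n = 2). Log2 changes are differences of log2(FPKM + 1), given with a standard error. They understate changes of weakly expressed genes. Adjusted p-values are from limma over 9679 tested genes, with a threshold of 0.05.

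The libraries set some limits. Read counts were not used here, so the absolute depth is unknown. From the authors' confidence bounds, 1 FPKM of a weakly expressed Obp gene stood for a median of 4.44 fragments in the thinnest library, A4 larvae replicate 1, and 9.18 in the deepest, A12 adults replicate 2. Over all tested genes the median log2 change of A4 against A12 was -0.43 in larvae and -0.05 in adults. A4 larvae replicate 2 carried male-type RNA. The summed level of 9 dosage compensation and testis genes was 111.8 FPKM there and 3.03 in A4 larvae replicate 1, beside at most 14.1 in A12 larvae, and all 9 reached 1 FPKM in A4 larvae replicate 2. How far each animal had gone through the instar is not in the labels and cannot be told apart from genotype in larvae. In RNA of whole animals, fewer cells of a type and less RNA per cell cannot be told apart either.

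A minority of the family made up nearly all of its RNA. In each library 18 to 22 of the 49 genes reached 1 FPKM, and 28 did so in at least 1 library. The other 21 stayed under 1 FPKM everywhere, among them Obp22a, Obp46a, Obp50a, Obp51a, Obp56f, Obp73a and Obp85a. At 1 FPKM or more in all 8 libraries were 11 genes. Of the rest, 5 reached 1 FPKM in every larval library and stayed below it in every adult one, namely Obp47a, Obp50d, Obp56b, Obp56c and Obp58c. The reverse held for 7, namely Obp8a, Obp19b, Obp19c, Obp19d, Obp56g, Obp57a and Obp57c. How many of all gene models split by stage in this way was not counted, so nothing is read from the 5 and the 7. Obp58b reached 1 FPKM in A4 larvae replicate 2 alone, at 1.14, and was not tested.

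**Figure D1:**
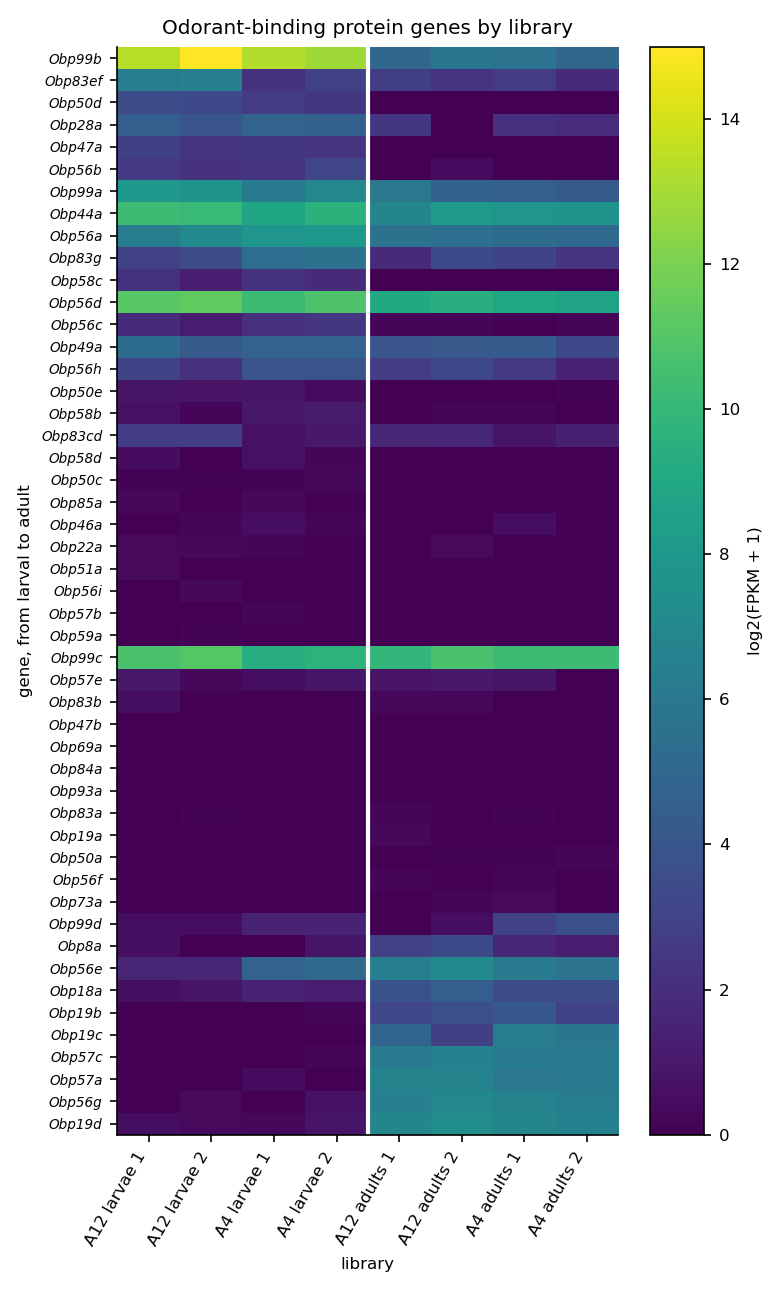
Level of all 49 genes in each library as log2(FPKM + 1), with rows ordered from genes higher in larvae to genes higher in adults and the white line between the stages. Obp99b, Obp44a and Obp56d are brighter in the larval than in the adult libraries, and a block from Obp18a to Obp19d is bright in adults. Among the middle rows Obp99c is bright at both stages, while most others stay under 1 FPKM.

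The sum over the family was higher in larvae. It was 16341 and 38928 FPKM in A12 larvae and 12712 and 11498 in A4 larvae, against 2346 and 3463 in A12 adults and 2671 and 2411 in A4 adults. As a share of all FPKM outside small RNA genes this was 3.53% ± 1.78 in A12 larvae, 1.66% ± 0.364 in A4 larvae, 0.38% ± 0.0953 in A12 adults and 0.375% ± 0.0275 in A4 adults. A single gene set the larval sum. Obp99b held 65.6% to 83.7% of it in the 4 larval libraries and 1.23% to 1.91% in the adult ones, where Obp99c held 42.0% to 51.3%.

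**Figure D2:**
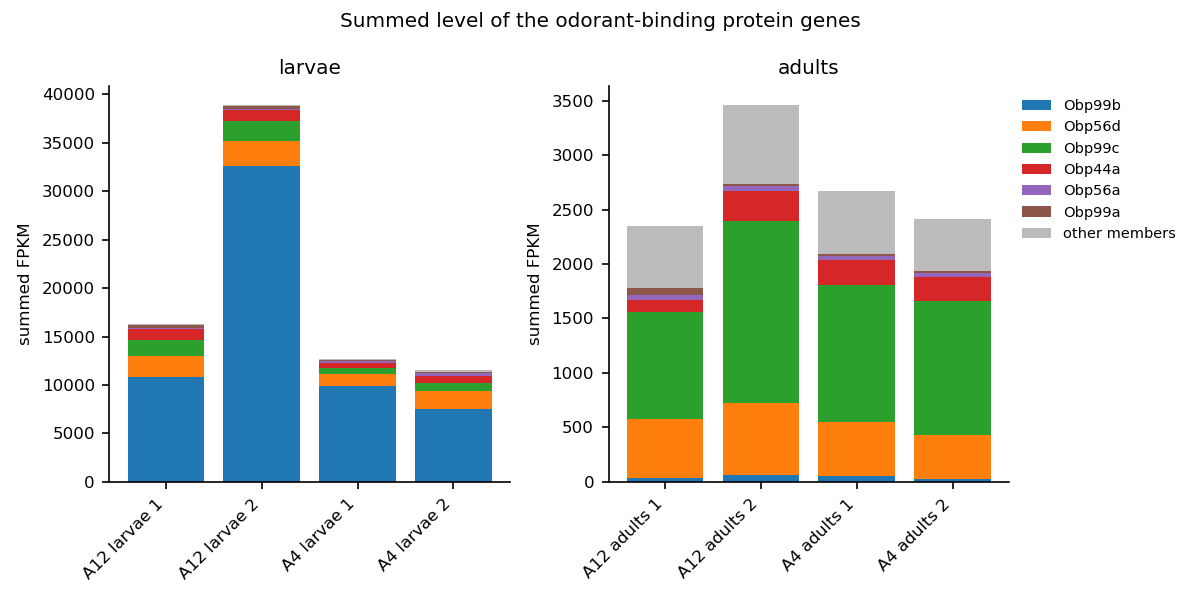
Summed FPKM of the family in each larval and each adult library, stacked by gene, with a separate vertical scale for each stage. Obp99b fills most of the larval bars and A12 larvae replicate 2 stands far above the other larval libraries, whereas Obp99c and Obp56d fill most of the adult bars.

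Most of the members listed as antennal were at or near 0, but not all. Obp83a and Obp83b, abundant proteins of antennal hairs also called OS-F and OS-E, reached no more than 0.186 and 0.492 FPKM in any library. Obp19a reached at most 0.226 FPKM. The family gene lush, which is needed to sense the male pheromone cis-vaccenyl acetate, reached at most 0.2 FPKM. Obp59a, a gene of humidity sensing, reached at most 0.107 FPKM, and Obp69a and Obp84a were listed at 0 in all 8 libraries. Of the 8 antennal members listed for this purpose, 1 or 2 reached 1 FPKM in each library, and these were Obp19d and Obp28a. Obp19d was high, at 117 and 171 FPKM in A12 adults and 114 and 94.2 in A4 adults. Obp28a lay between 14.3 and 26.8 FPKM in the larval libraries.

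The odorant receptor genes were low too, while Snmp1 and genes of the eye were not. Orco, the shared subunit of the odorant receptors, lay between 0.102 and 1.28 FPKM over the 8 libraries and stood at 0.549 and 0.569 FPKM in A12 adults and 0.22 and 0.914 in A4 adults. Of 60 odorant receptor genes in the tables, 0 passed the filter for testing, and in no adult library did one reach 1 FPKM. In the same adult libraries the rhodopsin gene ninaE of the eye stood at 636 and 731 FPKM in A12 and 912 and 529 in A4. That eye list was added after its values were seen. Of the 6 olfactory neuron and antenna genes in the tables, 1 was tested, Snmp1, a membrane protein needed to sense the same pheromone. It did not share the low level, standing at 4.96 and 6.26 FPKM in A12 adults and 4.59 and 5.36 in A4 adults, against 0.64 and 0.951 in A12 larvae and 1.06 and 1.65 in A4 larvae, and it was called higher in adults in both genotypes.

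Gene models that overlap another were listed at 0 more often, which limits what a 0 means. All 4 members at 0 in every library, Obp47b, Obp69a, Obp84a and Obp93a, overlap the model of another gene. Of the 13 members that overlap another model, 8 stayed under 1 FPKM, against 13 of the 36 that overlap none. Over all gene models those shares hardly differed, at 30.8% with an overlap and 27.8% without, so nothing is read from the member counts. Over all gene models, 16.8% of those with an overlap and 5.11% of those without were at 0 in all libraries. Absence of these 4 RNAs is therefore not shown. Obp83a, Obp83b, Obp19a and lush overlap no other model. Obp57b lies partly within the model of Obp57c, and it was listed at 0 in 7 libraries while Obp57c was high in adults, so how reads of the shared stretch were assigned bears on both.

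Most tested members differed between the stages. Genes were tested where their mean over the 8 libraries was at least 1 FPKM, which 27 members passed and 22 did not. The lowest mean inside was 1.40 FPKM, of Obp58c, and the highest outside was 0.626, of Obp57e. In A12, 9 of the 27 were higher in adults than in larvae and 13 lower, together 81.5%. Of all tested genes 58.6% were called, 41.1% higher and 17.6% lower. In A4, 10 were higher and 13 lower, together 85.2%, beside 69.7% of all tested genes, 55.8% higher and 13.9% lower. The median log2 change over all tested genes was 0.48 in A12 and 0.87 in A4. After median centring 9 members were higher and 14 lower in A12, and 7 higher and 15 lower in A4. The A4 calls of Obp56e, Obp8a and Obp99d were lost there. The shares of all tested genes after centring were not counted. A member expressed at a single stage passes this filter only through that stage, so these shares do not stand for the family. With all 49 genes tested and no filter, 23 were called in A12 and 24 in A4, where the share of all genes was not counted. The stage comparisons of A12 and A4 share no library, but 1 fit of all libraries gave both their estimate of the spread. All 9 genes called higher in adults of A12 were also called higher in A4, where they were 90% of the 10. Of the 13 genes lower in each genotype 11 were shared, 84.6% of either list. How many calls over all tested genes were shared was not counted, so nothing is read from these shares.

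The genes highest in larvae were led by Obp99b (3R 25541975 to 25542618), whose RNA has been described in fat body with a difference between the sexes. It stood at 10779.8 and 32591 FPKM in A12 larvae and 9906 and 7545 in A4 larvae, against 32.6 and 57.9 in A12 adults and 51.1 and 29.6 in A4 adults. All larval libraries lay far above all adult ones. The log2 change from larvae to adults was -8.72 ± 0.56 in A12 (adjusted p = 1.49e-05) and -7.76 ± 0.56 in A4 (adjusted p = 3.36e-05). Among genes other than small RNA genes, Obp99b ranked from 1 to 19 in the larval libraries and from 1271 to 2419 in adults. Of 8 tested fat body genes 5 were called lower and 3 higher in adults of both genotypes, and these 8 summed to between 38253 and 59846.7 FPKM in larvae and between 6029.6 and 9296.6 in adults. The part of fat body in the Obp99b values was not tested.

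Obp56d (2R 15590641 to 15591300) was the second gene of the family in both stages. Its level was 2179.9 and 2556 FPKM in A12 larvae, 1240.3 and 1787 in A4 larvae, 541 and 664 in A12 adults and 502 and 398 in A4 adults. The larval libraries did not overlap the adult ones, and the log2 change was -1.98 ± 0.28 in A12 and -1.73 ± 0.28 in A4. Obp44a (2R 4021874 to 4022588), known from glia of the brain, stood at 1221 and 1129 FPKM in A12 larvae and 454 and 789 in A4 larvae. In adults it stood at 114 and 272 FPKM in A12 and 227 and 220.2 in A4, and changed by -2.73 ± 0.43 in A12 and -1.42 ± 0.43 in A4. The A4 call of Obp44a was lost without A4 larvae replicate 2 (adjusted p = 0.125), without either A4 adult library and with no filter. Of 5 glial marker genes 2 were called higher and 0 lower in adults of both genotypes. Of all tested genes 41.1% were higher in A12 adults and 55.8% in A4 adults, so nothing is read from that count. The 5 summed to between 22.1 and 36.3 FPKM in larvae and between 59.0 and 112.8 in adults. The part of glia in the Obp44a values was not tested.

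Further members lower in adults were of medium or low level. Obp56a stood at 81.99 and 137 FPKM in A12 larvae and 229 and 250.1 in A4 larvae, against 47.6 and 44.2 in A12 adults and 39.2 and 33.3 in A4 adults. Obp99a stood at 249 and 214 FPKM in A12 larvae, 73.04 and 120.3 in A4 larvae, 59.4 and 23.96 in A12 adults and 21.1 and 17.8 in A4 adults. Both were lower in adults of both genotypes, with log2 changes of -1.19 ± 0.26 in A12 and -2.70 ± 0.26 in A4 for Obp56a and of -2.58 ± 0.42 and -2.22 ± 0.42 for Obp99a. Obp28a (2L 7496790 to 7497365), made in antennae and in the larval olfactory organ, stood at 21.5 and 14.3 FPKM in A12 larvae and 26.8 and 23.9 in A4 larvae. Its adult values were 4.27 and 0 FPKM in A12 and 3.11 and 2.68 in A4. It changed by -3.01 ± 0.67 in A12, a call lost without A12 larvae replicate 1 (adjusted p = 0.0549), and by -2.76 ± 0.67 in A4, a call lost with a pseudocount of 0.1 (adjusted p = 0.105). Obp47a, Obp50d, Obp56b, Obp56c and Obp58c, at means of 1.90 to 9.57 FPKM in the larval groups, had adult means of 0.165 FPKM or less and log2 changes from -3.40 ± 0.21 to -1.31 ± 0.28 in A12 and from -2.70 ± 0.34 to -2.03 ± 0.34 in A4.

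The genes that appear in adults included a pair and a trio of neighbours. Obp57a and Obp57c (2R 16391060 to 16393265) were at or under 0.38 FPKM in every larval library. In adults Obp57a stood at 104 and 102 FPKM in A12 and 61.4 and 68.8 in A4, and Obp57c at 73.98 and 97.2 in A12 and 71.8 and 71.7 in A4. Their log2 changes from larvae to adults were 6.71 ± 0.20 and 6.42 ± 0.19 in A12 and 5.81 ± 0.20 and 6.09 ± 0.19 in A4. Obp57e, linked in Drosophila sechellia to the choice of a toxic host fruit, stayed at or under 0.997 FPKM.

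Of the X-linked group, Obp19d (X 20290639 to 20292009), known from taste hairs and antennae, stood at 117 and 171 FPKM in A12 adults and 114 and 94.2 in A4 adults, and at 0.494 and 0.286 in A12 larvae and 0.254 and 0.831 in A4 larvae. Its neighbour Obp19c was listed at 0 in all larval libraries and stood at 27.8 and 6.09 FPKM in A12 adults and 76.6 and 57.1 in A4 adults. Obp19b stood at 8.32 and 11.7 FPKM in A12 adults and 16.7 and 7.04 in A4 adults, and at 0.148 FPKM or less in larvae. The fourth gene of the group, Obp19a, was near 0 at both stages as given above. Obp18a, elsewhere on the X chromosome, stood at 0.444 and 0.828 FPKM in A12 larvae, 1.69 and 1.29 in A4 larvae, 12.97 and 21.4 in A12 adults and 10.1 and 10.02 in A4 adults.

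Several members known as proteins of male seminal fluid were expressed in these adult females. Obp56g, which in males is needed for the mating plug, stood at 91.00 and 127 FPKM in A12 adults and 103 and 81.01 in A4 adults, and at 0.659 FPKM or less in larvae. Obp56e stood at 87.03 and 135 FPKM in A12 adults and 71.7 and 52.1 in A4 adults. Obp8a (X 9108928 to 9109734) stood at 6.87 and 9.27 FPKM in A12 adults and 2.03 and 1.31 in A4 adults, against 0.543 and 0 in A12 larvae and 0 and 0.822 in A4 larvae. All 3 were called higher in adults in both genotypes, where 41.1% of all tested genes in A12 and 55.8% in A4 were higher. Obp56g and Obp8a passed the filter through their adult levels, so nothing is read from that count. The A4 call of Obp8a (adjusted p = 0.0488) was lost under 13 alternatives, among them leaving out A4 larvae replicate 1 or any 1 adult library. The other 4 members of that list, Obp22a, Obp51a, Obp56f and Obp56i, stayed at or under 0.31 FPKM. The male accessory gland genes measured beside them were near 0, with 8 of them summing to between 0.476 and 2.19 FPKM in the adult libraries and Acp70A, the sex peptide gene, listed at 0 in all.

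Obp99c and Obp49a showed no stage call in either genotype. Obp99c (3R 25511457 to 25515033) stood at 1637 and 2136 FPKM in A12 larvae, 646 and 819 in A4 larvae, 985 and 1674 in A12 adults and 1255 and 1236 in A4 adults. Its log2 changes of -0.54 ± 0.33 in A12 and 0.78 ± 0.33 in A4 did not pass, though the latter did under 6 alternatives. Obp49a, made in taste hairs where it takes part in the suppression of sweet taste by bitter compounds, stood at 38.3 and 17.9 FPKM in A12 larvae, 25.6 and 25.2 in A4 larvae, 14.6 and 17.2 in A12 adults and 19.6 and 8.77 in A4 adults. Its changes of -0.69 ± 0.43 in A12 and -0.90 ± 0.43 in A4 did not pass, but both did after median centring.

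**Figure D3:**
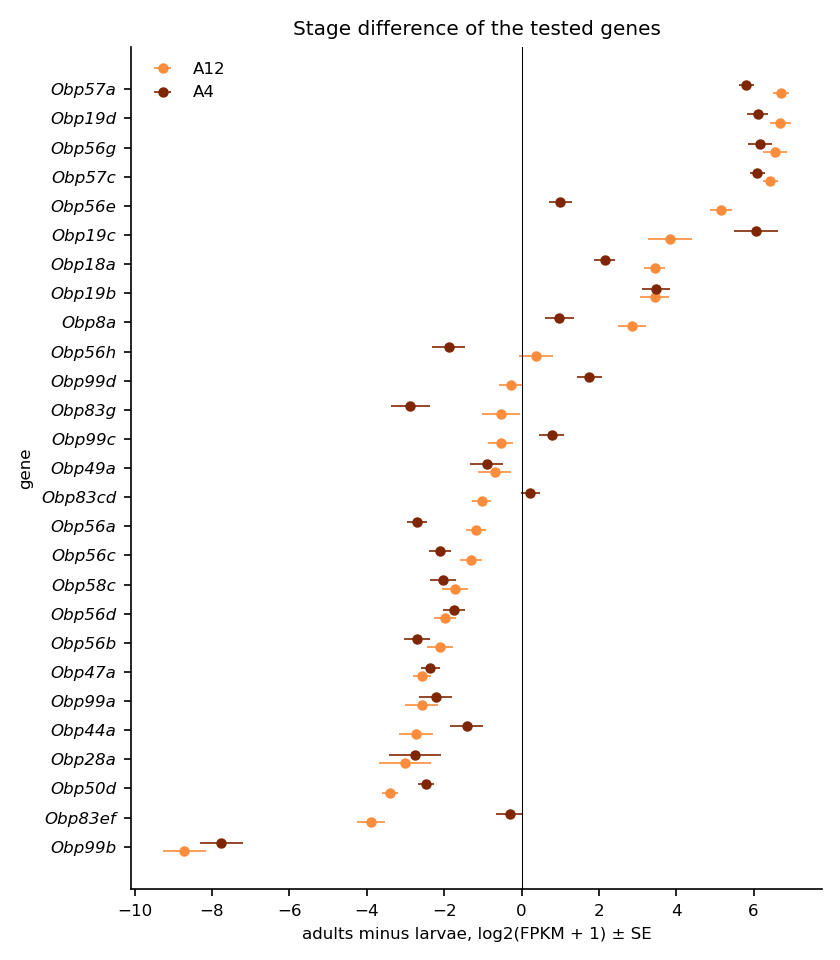
Log2 change from larvae to adults of the 27 tested genes, with standard errors from limma, in A12 and in A4. Obp99b lies at -8.72 in A12 and -7.76 in A4, 4 genes lie near 6 in both genotypes, and the points of Obp56e, Obp83ef, Obp19c and Obp83g lie apart between the genotypes.

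The comparison of A4 with A12 larvae asked which genes differ in the rearranged genotype before metamorphosis. In these larvae 3 members were higher in A4, Obp56e, Obp56a and Obp83g, and 4 were lower, Obp83ef, Obp83cd, Obp99c and Obp50d. These 7 of 27 were 25.9% of the tested members, where 34.7% of all tested genes were called, 8.75% higher and 25.9% lower. The share of members called was thus no higher than that of all genes. The balance of directions turned with the scaling, to 6 higher and 2 lower after median centring and 6 higher and 3 lower after quantile normalization. The shares of all tested genes under those scalings were not counted, so nothing about the members is read from that turn. The median log2 change of the 27 members was 0.12 beside -0.43 over all genes. Of the 7 calls, those of Obp56e, Obp83cd and Obp83ef held under all 20 alternatives, or under all those that gave the gene a value.

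Obp56e (2R 15599849 to 15600461) was the member with the largest rise. Its level was 2.08 and 2.08 FPKM in A12 larvae and 24.96 and 35.9 in A4 larvae. Both A4 libraries lay far above both A12 libraries, and the means differed 14.6 times. The log2 change was 3.33 ± 0.29 (adjusted p = 0.00034), and the authors' deposited table gave a log2 ratio of 3.87. With A4 larvae replicate 2 and its male-type RNA left out, the log2 change was 3.07 and the adjusted p 0.00475.

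Its neighbours in the Obp56 group did not all move with it. Obp56a was higher in A4 larvae, 239.7 ± 14.7 against 109 ± 38.6 FPKM, with 1.17 ± 0.26 as the log2 change (adjusted p = 0.0148), with libraries that did not overlap. That call was lost when either A4 larval library or A12 larvae replicate 1 was left out (adjusted p = 0.059, 0.0654 and 0.0513), and with the larval libraries alone. Obp56d, which lies between them, had a mean of 1514 ± 386 FPKM in A4 larvae and 2368 ± 266 in A12 larvae, with a log2 change of -0.66 ± 0.28 that did not pass (adjusted p = 0.104). Obp56b and Obp56c, at 5.80 ± 2.89 and 3.72 ± 0.668 FPKM in A4 larvae, did not pass either, but Obp56c did after median centring. Obp56h, whose knockdown in males changes cuticular hydrocarbons and mating, stood at 7.58 and 3.35 FPKM in A12 larvae and 13.3 and 13.99 in A4 larvae (adjusted p = 0.0564), and at 5.66 and 8.42 in A12 adults and 4.69 and 1.78 in A4 adults. Its larval libraries did not overlap, and the larval difference passed after median centring and after quantile normalization.

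The neighbours of the Obp83 group moved in opposite directions. Obp83cd and Obp83ef, whose proteins each hold a pair of binding domains, were lower in A4 larvae, while their neighbour Obp83g was higher. Obp83ef (3R 1935402 to 1936740) stood at 78.02 and 89.6 FPKM in A12 larvae and 3.61 and 6.62 in A4 larvae, a mean 16.4 times higher in A12. In adults it stood at 5.86 and 3.76 FPKM in A12 and 5.31 and 2.62 in A4. The larval log2 change was -3.84 ± 0.36 (adjusted p = 0.000426). Obp83cd stood at 5.30 and 5.65 FPKM in A12 larvae and 0.604 and 1.02 in A4 larvae, while in adults it stood at 2.10 and 2.23 in A12 and 0.794 and 1.49 in A4. The larval log2 change was -1.85 ± 0.24 (adjusted p = 0.0019). The authors' deposited table gave log2 ratios of -4.03 for Obp83ef and -2.75 for Obp83cd. Their gene models lie on opposite strands and overlap at the ends, and whether the counting used strand is not given, so reads of the overlap could have been counted for either gene.

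Obp83g (3R 1937391 to 1938019) rose in A4 larvae. It stood at 6.36 and 9.82 FPKM in A12 larvae and 40.6 and 49.7 in A4 larvae, so that the A4 libraries lay well above both A12 libraries. In adults it stood at 2.66 and 9.46 FPKM in A12 and 7.05 and 3.90 in A4, where the libraries overlapped. The log2 change was 2.36 ± 0.49 (adjusted p = 0.012). The call was lost when either A4 larval library or A12 larvae replicate 1 was left out (adjusted p = 0.0591, 0.0676 and 0.105), and with no filter (adjusted p = 0.0559).

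The remaining larval calls were lost after median centring. Obp99c fell to 732 ± 123 FPKM in A4 larvae, beside 1886 ± 353 in A12 larvae. The log2 change was -1.36 ± 0.33 (adjusted p = 0.0192). Obp99c also passed after quantile normalization (adjusted p = 0.0163) and after rescaling without small RNA genes (adjusted p = 0.0167). Its change was -0.90 after median centring and did not pass there (adjusted p = 0.143), nor without A4 larvae replicate 1, A12 larvae replicate 1 or A12 larvae replicate 2. Obp50d (2R 10260628 to 10261264) fell to 4.97 and 4.08 FPKM in the A4 larval libraries, from 10.4 and 8.79 in the A12 ones, and was listed at 0 in adults. Its log2 change of -0.94 ± 0.21 (adjusted p = 0.0152) became -0.48 after median centring and did not pass (adjusted p = 0.138). Obp99a lay close to the threshold, with a log2 change of -1.29 ± 0.42 (adjusted p = 0.0507) and libraries that did not overlap. Obp99b and Obp44a were also lower on average in A4 larvae without passing. For Obp99b the log2 change was -1.12 ± 0.56 (adjusted p = 0.152), and the A12 libraries lay far apart.

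Some other tissue markers differed between the genotypes in larvae, where 34.7% of all tested genes were called, 8.75% higher and 25.9% lower. The summed level of 6 salivary glue genes was 27579 and 40091 FPKM in A12 larvae and 15568 and 15779 in A4 larvae, and 4 of the 6 were called lower in A4. Of 5 neuronal genes 2 were called lower in A4, elav at 8.51 and 3.91 FPKM in A12 larvae and 0.625 and 0.315 in A4 larvae and Syt1 at 9.30 and 6.66 in A12 larvae and 4.50 and 3.18 in A4 larvae. Of 8 tested fat body genes 1 was called higher and 2 lower. Of 5 glial genes 0 were called, and of 8 genes of the eye 0. The part of these tissues in the Obp results was not tested. The male-type RNA of A4 larvae replicate 2 bears on a single library, and 5 of the 7 calls held without it.

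**Figure D4:**
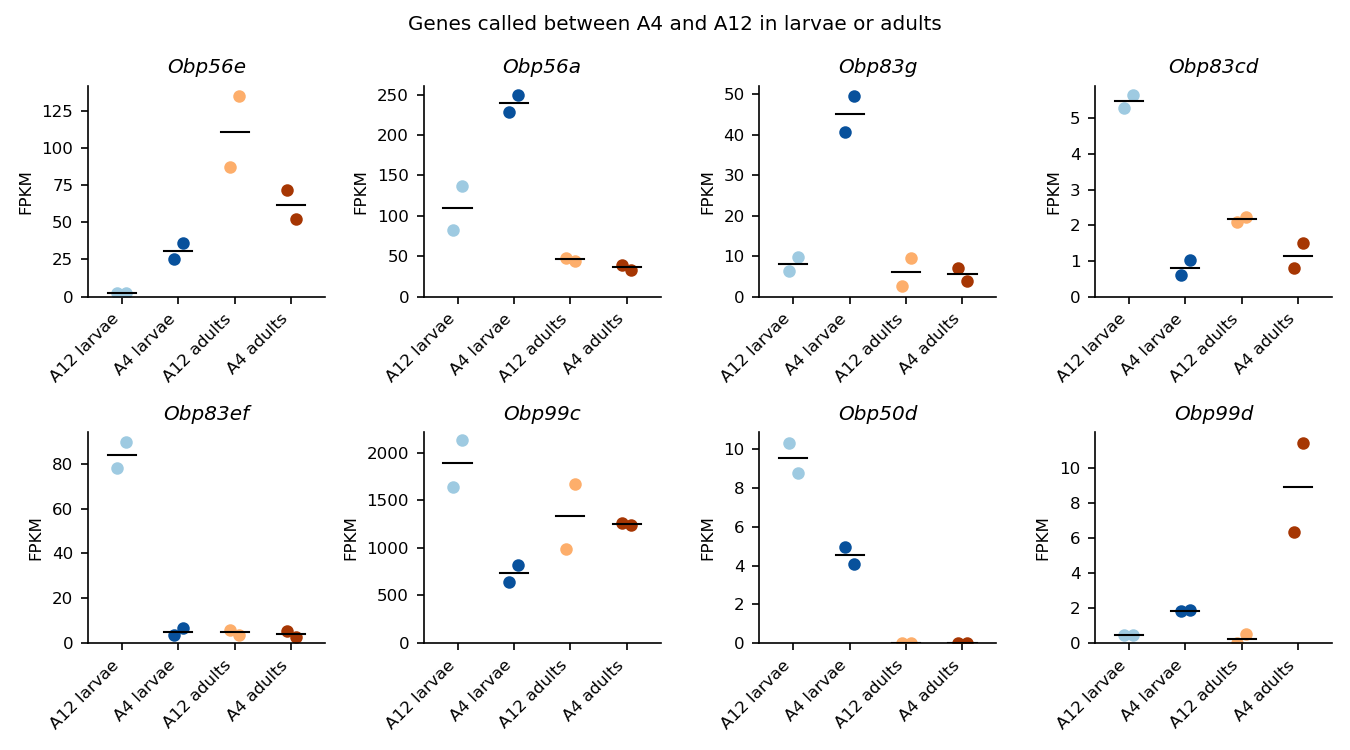
FPKM in each library (points) and group mean (line) of the 8 genes called between A4 and A12 in larvae or in adults, each on its own scale from 0. Obp56e, Obp56a and Obp83g are higher in A4 than in A12 larvae, Obp83cd, Obp83ef, Obp99c and Obp50d are lower, and Obp99d is highest in A4 adults.

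The comparison of A4 with A12 adults gave 1 call. Obp99d (3R 25540260 to 25540674) stood at 0 and 0.492 FPKM in A12 adults and 6.33 and 11.4 in A4 adults. The libraries did not overlap, and the log2 change was 2.97 ± 0.32 (adjusted p = 0.00721). That is 1 of 27 members, 3.7%, where 0.734% of all tested genes were called, 0.217% higher and 0.517% lower. At an unadjusted p under 0.05 in limma there were 7. The share of all tested genes at that level was not counted, here or below, so nothing is read from such counts. Obp99d reached the mean of 1 FPKM needed for testing only through the A4 adults, where it is high, so nothing is read from the 3.7% either. The call was lost with the adult libraries alone (adjusted p = 0.183), with no filter (adjusted p = 0.0568) and with a pseudocount of 0.1 (adjusted p = 0.0573), and the level is low. In larvae Obp99d was also higher in A4, at 1.80 and 1.86 against 0.469 and 0.48 FPKM, without passing (adjusted p = 0.0559), though it passed under 8 alternatives. It lies next to Obp99b, which stood at 40.4 ± 15.2 FPKM in A4 adults and 45.2 ± 17.9 in A12 adults.

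The largest adult differences that did not pass were of Obp19c and Obp8a. Obp19c was higher in both A4 libraries, 66.9 ± 13.8 against 16.96 ± 15.4 FPKM, with a log2 change of 2.23 ± 0.57 (adjusted p = 0.252). It passed without A12 adults replicate 1, where the other A12 library stands alone. Obp8a was lower in both A4 libraries, with a log2 change of -1.76 ± 0.37 (adjusted p = 0.153), and passed with a pseudocount of 5 and with robust eBayes. For the abundant members the adult log2 changes did not pass, at -0.04 ± 0.33 for Obp99c, -0.42 ± 0.28 for Obp56d, 0.34 ± 0.43 for Obp44a and -0.44 ± 0.27 for Obp19d. These intervals do not show that the genotypes are alike. Of the 27 members, 18 had a change below 0 and 6 above, with a median of -0.24 beside -0.05 over all genes.

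Whether the difference between A4 and A12 changed with stage was tested by the interaction. It was called for 7 of 27 members, 25.9%, where 17.6% of all tested genes were called, 10.9% higher and 6.75% lower. Of the 7, 3 were higher and 4 lower, and after median centring 1 was higher and 5 lower. For centred values the share of all tested genes was not counted. For Obp56e the difference of 3.33 ± 0.29 in larvae stood against -0.82 ± 0.29 in adults, an interaction of -4.15 ± 0.41 (adjusted p = 0.00135). For Obp83ef, -3.84 ± 0.36 in larvae stood against -0.26 ± 0.36 in adults, an interaction of 3.58 ± 0.50 (adjusted p = 0.00523). These 2 held under all alternatives that gave a value. The other 5, Obp56a, Obp56h, Obp83cd, Obp8a and Obp99d, had adjusted p-values from 0.025 to 0.0491 and were each lost when single libraries were left out, including A4 larvae replicate 2, which leaves 2 calls. Seen from the stages, Obp56e rose from larvae to adults by 5.15 ± 0.29 in A12 and by 1.01 ± 0.29 in A4, where the call was lost after median centring (log2 change 0.04), after quantile normalization, with no filter and without A4 larvae replicate 1 or A4 adults replicate 1. Obp83ef changed by -3.89 ± 0.36 in A12 and did not pass in A4 (-0.31 ± 0.36), though it did after median centring and after quantile normalization.

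**Figure D5:**
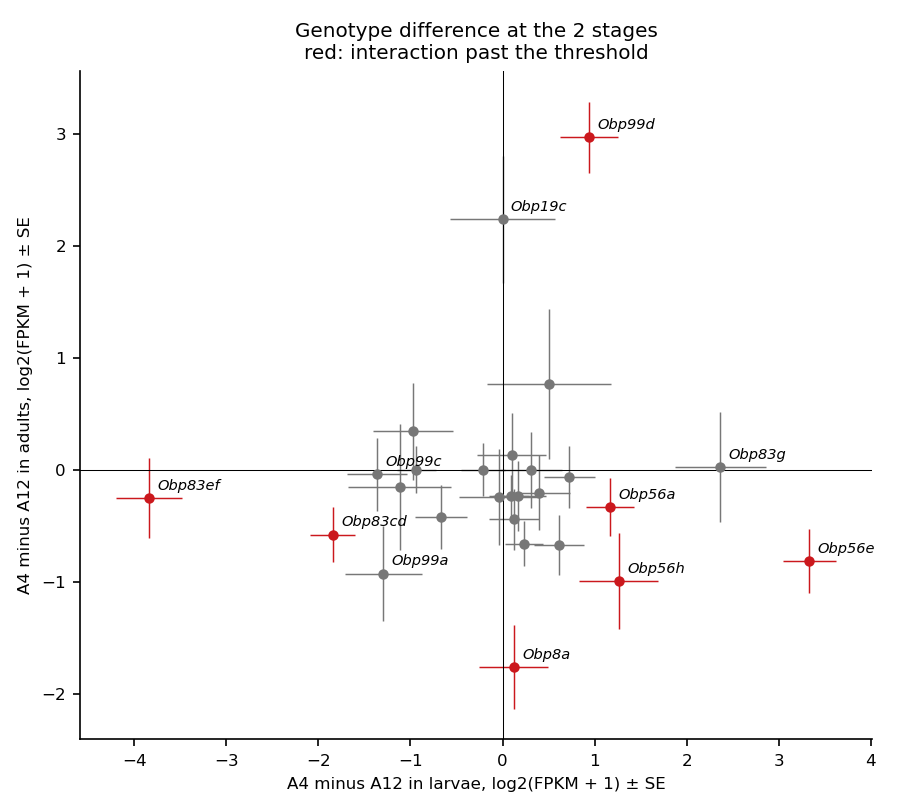
Log2 difference of A4 minus A12 in larvae (horizontal) and in adults (vertical) for the 27 tested genes, with standard errors from limma and the 7 genes with an interaction past the threshold in red. Obp83ef lies far to the left and Obp56e far to the right near the horizontal axis, and Obp99d stands alone at the top.

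Other genes of odour and taste detection were mostly too low to test. Of 59 ionotropic and 59 gustatory receptor genes, 1 each was tested, Ir62a and Gr94a. By limma neither was called in a comparison. At an unadjusted p under 0.05 Gr94a passed between the genotypes in larvae and Ir62a between the stages in A4. CheA and CheB genes, which encode secreted proteins of pheromone-sensing taste hairs, had 6 of 20 members tested, which were near 0 in most larval libraries and passed the filter through their adult levels. The 6 calls higher in adults in both genotypes, where 41.1% of all tested genes in A12 and 55.8% in A4 were higher, are thus no support. CheA75a, for example, stood at 27.2 and 35.9 FPKM in A12 adults and 25.03 and 19.3 in A4 adults. Between the genotypes limma called 0 of the 6 in larvae and 0 in adults, with 0 and 1 at an unadjusted p under 0.05. Of 3 chemosensory protein genes, another family of small secreted binding proteins, 2 were tested. Of these PebIII was higher in A4 larvae, at 80.1 and 104 FPKM against 23.1 and 34.1 in A12 larvae, with 1.66 ± 0.29 as the log2 change (adjusted p = 0.00628). CG30172 did not pass (adjusted p = 0.108).

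Among 7 tested membrane proteins and enzymes that handle odours, 3 were higher in A4 larvae and 0 lower, where 8.75% of all tested genes were higher and 25.9% lower. The esterase gene Est-6 stood at 1.99 and 3.09 FPKM in A4 larvae and 0.51 and 0.657 in A12 larvae, with 1.15 ± 0.20 as the log2 change (adjusted p = 0.00586). The glucuronosyl transferase genes Ugt35a and Ugt35b changed by 1.54 ± 0.20 and 1.002 ± 0.19 (adjusted p = 0.00175 and 0.00792). In adults limma called 0 of the 7 between the genotypes, with 2 at an unadjusted p under 0.05. These lists were written by function with earlier results of these data known.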

How the data were processed

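The FPKM values of 8 libraries, with confidence bounds and a status, were made by the authors with Cufflinks on dm3, per the submitters' processing notes, and deposited per gene model. Bowtie, Bowtie2 and TopHat 0.6 are named there too, and per the labels' protocols libraries were TruSeq after Ribo-Zero. Log2 ratios of A4 to A12 were deposited by the authors for 11 of the 49 genes. Each library has 1 table of its own.

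The 17 models whose status was failed or high-data somewhere were dropped, 0 of them Obp genes. The test took log2(FPKM + 1) of genes averaging 1 FPKM or more into 1 limma fit of the 4 groups (limma 3.58.1, R 4.3.3), using eBayes with trend and Benjamini-Hochberg adjustment over 9679 genes. Small RNA genes held 62.7% to 81.2% of the FPKM sum. The fragments behind 1 FPKM were read from the bounds of Obp genes under 30 FPKM, taken as spanning 4 standard deviations of a count. Tables and figures used Python 3.11.15, pandas 2.3.3 and matplotlib 3.10.9. Replicate numbers are not stated to pair libraries. Correlations of replicate 1 minus 2 between groups ran from -0.0617 to 0.0857, which cannot show that libraries were unpaired.

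The fit was tested on simulated data. Each gene had its mean and spread over all 4 groups, so the larval and adult runs differed in the group changed and the random draw. Of 50 genes changed by 2 on the log2 scale among 9679, 64% were found in the larval run and 70% in the adult run. Of 50 changed by 1, 18% and 10% were found. In the data 34.7% of tested genes were called in larvae and 0.734% in adults, so these shares do not give the recovery in either comparison. The members and lists were chosen with earlier results of these data known. Values in every library are given for each Obp gene called in a genotype comparison or the interaction or with a group mean of at least 10 FPKM, and for other lists up to 3 genes with the smallest p.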

Additional observations from a re-analysis of the deposited data

Results flagged for a closer look

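By the interaction test in limma, the difference between A4 and A12 was called unlike in larvae and adults for 7 of 27 tested members. That was 25.9% of them, beside 17.6% of all tested genes. The values are the adult difference less the larval one on the log2 scale. For Obp56e the value was -4.15, for Obp56h -2.26, for Obp8a -1.88 and for Obp56a -1.51, so the A4 level relative to A12 was lower in adults than in larvae. For Obp83ef it was 3.58, for Obp99d 2.03 and for Obp83cd 1.26, the opposite direction. The adjusted p-values were 0.00135 for Obp56e and 0.00523 for Obp83ef and lay between 0.025 and 0.0491 for the other 5. Obp56e and Obp83ef were called under every alternative that gave a value, and the other 5 were not.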

How the results depend on the processing

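Each comparison was refitted under 20 alternatives (19 for the interaction), and no called gene changed its direction. The share of all tested genes called was not counted under the alternatives. The counts below therefore do not tell a shift of the members from one of all genes. In larvae 7 members were called between A4 and A12. Robust eBayes gave 11, and leaving out single libraries gave 4 to 8, with 4 without A4 larvae replicate 1. In adults 1 was called, and counts at an unadjusted p have no share over all tested genes beside them. In limma a pseudocount of 0.1, no filter, a 5 FPKM filter (which leaves Obp99d untested) and the adult libraries alone gave 0, with 3, 6, 3 and 4 at an unadjusted p under 0.05, whereas a pseudocount of 5 and robust eBayes gave 2, and leaving out single libraries gave 1 to 2. The interaction was called for 7 members. A pseudocount of 0.1 and no filter gave 3, rescaling without small RNA genes gave 4, and leaving out single libraries gave 2 to 5, so its count rests on all 8 libraries. The stage comparisons gave 21 to 23 calls in A12 and in A4 with single libraries left out, where 22 and 23 were called. The cause of these shifts was not tested. With replicate number as a block, 8 members were called in larvae, 1 in adults, 22 and 22 between the stages in A12 and A4, and 6 in the interaction. On median-centred values the block gave 8, 1, 24, 23 and 5. A threshold of 0.1 in place of 1 FPKM raised the members detected per library from between 18 and 22 to between 25 and 31 (31 in A4 larvae replicate 1 and A12 larvae replicate 1, 29 in A12 larvae replicate 2). A threshold of 10 FPKM left 9 to 15, with 11 in both A4 larval libraries, 10 and 9 in A12 larvae and 14 in A4 adults replicate 2. With 2 libraries a group, a low gene is limited by the few fragments behind 1 FPKM.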
